A study of Mus musculus with 13 samples.

Results

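LacZ line 12 and LacZ line 10 are a pair of mouse melanoma cell lines that carry the control construct of a study on soluble adenylyl cyclase, and comparing line 12 with line 10 asks how far control lines differ from each other. They were chosen by their titles and cell line numbers and hold 4 of the 13 libraries of the study, 2 from each line. Line 12 and line 10 were each sequenced at 0 h, without doxycycline, and after 48 h of doxycycline in the growth medium. The other 9 libraries are from NLS lines 6, 7 and 16, sampled at 0, 6 and 48 h of doxycycline, whose compartment label under doxycycline is nuclear. The compartment label of the LacZ libraries is "none" at 0 h but "nuclear" at 48 h, which goes against their titles. All lines were grown in vitro, and poly(A) RNA was sequenced as stranded read pairs. The labels give a number for each line and do not say whether a line is a clone or whether libraries came from separate cultures. The p-values given here therefore reflect the scatter among these libraries alone, which may be technical.

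Soluble adenylyl cyclase, encoded by Adcy10, makes cyclic AMP (cAMP) inside the cell rather than at the plasma membrane, and cAMP acts through protein kinase A and the factor CREB. Doxycycline is an antibiotic that switches on genes placed under an inducible promoter, and a line that expresses the bacterial enzyme beta-galactosidase from the lacZ gene shows what the antibiotic and the construct do without the cyclase. Lines that carry the same kind of construct can still differ, for instance in where it inserted or in which cells were expanded.

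Depth in line 12 was 20127901 estimated reads at 0 h and 20233514 at 48 h, against 18512887 and 18997571 in line 10, and the 13 libraries spanned 18512887 to 22584628. Adcy10 was nearly silent, with 2 and 0 reads in line 12 and 3 and 3 reads in line 10 (0 reads at 48 h in line 12 allow up to 0.153 CPM, read counts scaled to a common library size), against 0.674 to 372.7 CPM in the NLS libraries. Pigment cell markers were scarce, so these values do not by themselves bear out the name melanoma, and the identity of the lines was not tested. Mitf, the master regulator of melanocytes, had 3.08 and 3.63 CPM in line 12 and 3.68 and 3.15 CPM in line 10, and Tyr, Tyrp1, Dct, Pmel, Mlana, Sox10 and Kit stayed at or under 0.46 CPM in all 4 libraries. Col1a1, the main chain of type I collagen, had 2545 and 2689 CPM in line 12 and 2735 and 3104 CPM in line 10. The defining leukocyte, keratinocyte and endothelial markers Ptprc, Cd3e, Adgre1, Krt5, Epcam, Kdr and Cdh5 lay at or under 0.0534 CPM in these libraries. Other members of those lists were detected. Cd68, a lysosomal protein of macrophages that other cells also make, had 5.62 and 7.41 CPM in line 12 and 6.46 and 8.74 CPM in line 10. Pecam1, an endothelial adhesion protein, had 3.18 and 2.50 CPM in line 12 and 2.40 and 2.21 CPM in line 10, and Krt18, a keratin of simple epithelia, had 1.59 and 1.07 CPM in line 12 and 2.08 and 2.54 CPM in line 10. Summed over each list, leukocyte markers had 5.77 and 7.77 CPM in line 12 and 6.78 and 9.07 CPM in line 10, keratinocyte markers 2.44 and 1.74 CPM in line 12 and 2.83 and 3.10 CPM in line 10, and endothelial markers 3.23 and 2.50 CPM in line 12 and 2.46 and 2.21 CPM in line 10, with 1 gene of each list tested and 0 called.

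Adgrg1 had the largest increase in line 12 among the genes called, and Txnip the largest decrease. Their promoter sequences are shown because most Adgrg1 transcripts were assigned to 2 promoters and the Txnip promoter holds the element through which glucose acts on it. Bases run 5′ to 3′ on the plus strand, end just before the first annotated transcript start in the window, and come from RefSeq on GRCm38.p6. For Adgrg1 the upstream window is chr8:94976859-94976992 and the downstream one chr8:94984149-94984370, and capitals mark matches to the AP-1 motif TGANTCA (both strands, a palindrome). For Txnip the window is chr3:96557707-96557956, and capitals mark the carbohydrate response element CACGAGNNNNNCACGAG.
Adgrg1 upstream: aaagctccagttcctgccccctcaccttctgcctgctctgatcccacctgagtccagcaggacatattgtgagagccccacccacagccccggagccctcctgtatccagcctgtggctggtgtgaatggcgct
Adgrg1 downstream: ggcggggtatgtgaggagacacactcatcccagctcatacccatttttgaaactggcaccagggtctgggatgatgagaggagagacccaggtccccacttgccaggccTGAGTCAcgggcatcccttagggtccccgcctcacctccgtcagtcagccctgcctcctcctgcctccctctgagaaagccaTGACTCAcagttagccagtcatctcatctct
Txnip: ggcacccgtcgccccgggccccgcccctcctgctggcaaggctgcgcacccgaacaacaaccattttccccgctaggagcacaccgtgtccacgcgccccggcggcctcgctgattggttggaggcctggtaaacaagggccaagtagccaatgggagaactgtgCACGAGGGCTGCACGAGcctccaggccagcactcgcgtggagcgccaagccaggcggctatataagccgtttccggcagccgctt
The AP-1 motif had 2 matches in the downstream Adgrg1 window and 0 in the upstream one; 6.16% of all 32851 promoter windows cut to the 222 bases of the downstream one hold it, and 3.47% of those cut to the 134 bases of the upstream one. The element was searched for in exactly the letters that the Txnip window holds, so a match there was fixed by that choice. In these letters it was found in 1 of 32851 windows of 250 bases, Txnip itself. Looser forms of the element were not searched for, so the count does not show that other promoters lack it. A match describes letters and does not show that a factor binds.

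Few genes were called between the lines. Of 11567 genes with at least 1 CPM in at least 2 of the 4 LacZ libraries, 22 (0.19%) passed an adjusted p of 0.05 for line 12 against line 10, with 15 higher (0.13%) and 7 lower (0.0605%) in line 12 (edgeR quasi-likelihood test with Benjamini-Hochberg adjustment, time label as a block, spread shared with the NLS lines). Before adjustment 1540 genes had a p below 0.05 by the same test, and a gene that was not called is not thereby shown to be equal. By size, 7 of the 22 were at least 1.5-fold apart and 2 at least 2-fold, Adgrg1 and Avil. All 22 had the same direction at 0 h and at 48 h, as did 6774 of all tested genes (58.6%). In 16 of the 22 the libraries of line 12 and line 10 did not overlap, as in 2569 of all tested genes (22.2%). The call takes both times together and so favours such genes, and neither count is separate evidence for the 22. The number of calls depends on where the spread is taken from. It was 167 without the 6 h NLS libraries and 343 (2.97%; 105 higher, 238 lower) with the 4 LacZ libraries alone, where 1 residual degree of freedom is left, and all 22 genes were among the 343; it was 0 when the time label was left out of the model, with 542 genes at an unadjusted p below 0.05.

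**Figure D1:**
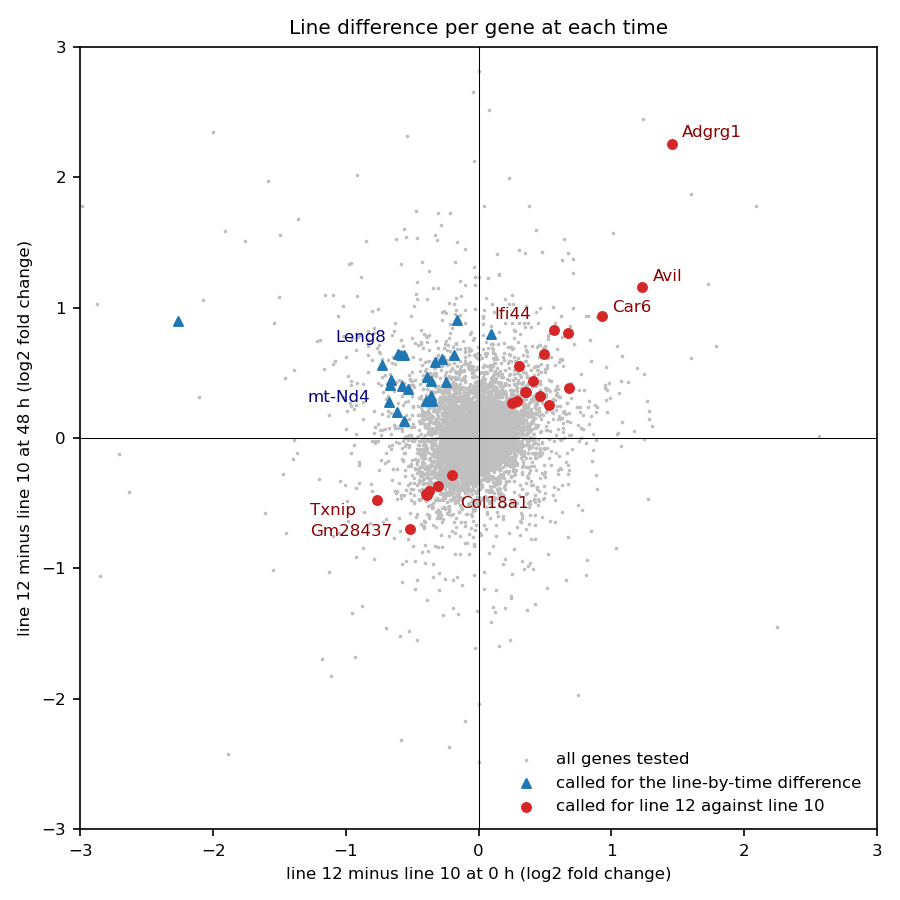
Line 12 minus line 10 at 0 h (x axis) and at 48 h (y axis) for each gene tested, as log2 fold changes; red points are the 22 genes called over both times, blue triangles those called for a line difference that changes with time, and 38 genes lie beyond the axes. Red points fall in the quadrants where both times have the same sign, which their call favours. Nearly all triangles, whose call favours opposite signs, lie where line 12 is lower at 0 h and higher at 48 h.

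Of the 15 genes higher in line 12, Adgrg1, Adgrg6, Scara5 and Ly6a encode adhesion receptors or other cell surface proteins. The share of such genes among all genes tested was not counted. Adgrg1 (ENSMUSG00000031785, GRCm38 chromosome 8, 94974751 to 95014217, plus strand) encodes GPR56, an adhesion G protein-coupled receptor that in human melanoma has been described as a restraint on growth and spread. It had 39.1 and 23.56 CPM at 0 and 48 h in line 12, against 14.25 and 4.92 CPM in line 10. Both line 12 libraries were above both line 10 libraries and above all 9 NLS libraries, which lay between 3.18 and 22.27 CPM. The log2 fold change was 1.79 (SE 0.175), with an adjusted p of 0.00236 by edgeR's quasi-likelihood test, and the gene was also called at 48 h and at 0 h alone. Transcripts starting at the downstream promoter summed to 15.9 and 9.46 TPM (a unit scaled by transcript length and library) in line 12 and 5.68 and 1.77 TPM in line 10. Those starting at the upstream promoter summed to 9.15 and 4.12 TPM in line 12 and 0 and 2.19 TPM in line 10. Both groups of starts were higher in line 12 at both times, and the upstream ones of line 10 at 0 h were at an estimate of 0, which gives no ratio. Transcripts starting elsewhere went the other way at 0 h, with 0.264 TPM in line 12 and 2 TPM in line 10, and had 0 TPM in both lines at 48 h. The division of reads among starts is an estimate. Adgrg6, a related adhesion receptor (GPR126) that Schwann cells need for myelination, had 54.37 and 64.85 CPM in line 12 and 43.94 and 44.14 CPM in line 10 (log2 fold change 0.43, SE 0.0776, adjusted p = 0.0369 by edgeR). Scara5, a scavenger receptor that binds ferritin, had 120.9 and 155.3 CPM in line 12 and 83.82 and 130.3 CPM in line 10, where the lines overlapped across times, and both lines lay below every NLS library (257.1 to 417.6 CPM). Its log2 fold change was 0.39 over both times and 0.254 without either 0 h library of the LacZ lines. Ly6a, which encodes the surface antigen Sca-1, had 184.7 and 293.2 CPM in line 12 and 144.3 and 230.1 CPM in line 10. It shares 31.9% of its 31-base words with other annotated genes, and the sum with Ly6c1, its closest copy, was likewise higher in line 12 (log2 0.295 at 0 h and 0.32 at 48 h).

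Of cytoskeletal genes, Avil and Actg2 were called. Avil, which encodes advillin, an actin-bundling protein of the villin family, had 12.04 and 13.44 CPM in line 12 and 5.12 and 6.03 CPM in line 10. This was the second largest increase, a log2 fold change of 1.19 (SE 0.207, adjusted p = 0.0492 by edgeR), but the NLS lines ranged from 4.35 to 15.08 CPM and covered both lines. Actg2, the smooth muscle gamma-actin, had 23.93 and 68.73 CPM in line 12 and 18.04 and 50.72 CPM in line 10. Its increase with time in both lines was larger than the line difference (log2 fold change 1.51 for 48 h against 0 h and 0.43 for line 12 against line 10). Among the 15 tested genes of the serum response factor and contractile list, Actg2 alone passed the test. Of these 15 genes 10 lay above 0 and 5 below, with a median log2 fold change of 0.0664, so the list was not raised as a whole. Acta2, the smooth muscle alpha-actin, had 434.8 and 1852 CPM in line 12 and 342.2 and 1505 CPM in line 10 (adjusted p = 0.419 by edgeR), and Lmod1, which nucleates actin filaments, had 16.42 and 39.86 CPM in line 12 and 13.19 and 27.43 CPM in line 10 (adjusted p = 0.117 by edgeR). Etl4, whose mouse mutants have defects of the intervertebral discs, had 13.28 and 26.22 CPM in line 12 and 9.45 and 16.76 CPM in line 10 (log2 fold change 0.58, SE 0.113).

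Of the called genes, Car6, Fstl1 and Col18a1 encode secreted or matrix proteins, while the lists of collagens and matrix (22 genes tested) and of proteases and inhibitors (17) had 0 calls. Car6, a secreted carbonic anhydrase, had 6.52 and 5.83 CPM in line 12 and 3.42 and 3.04 CPM in line 10 (log2 fold change 0.93, SE 0.16, adjusted p = 0.0302 by edgeR), and line 10 lay below all NLS libraries (5.74 to 29.15 CPM). Fstl1, a secreted glycoprotein of the follistatin family, had 445.2 and 515.3 CPM in line 12 and 363.6 and 424.2 CPM in line 10; both lines lay under the NLS range, which began at 606.3 CPM. Col18a1, whose collagen XVIII chain is the source of endostatin, had 586.3 and 559.9 CPM in line 12 and 671.9 and 681.7 CPM in line 10, the decrease of smallest size among the 7 (log2 fold change -0.24, SE 0.0471). With a correction for GC content it was -0.10 and no longer called (adjusted p = 0.607 by edgeR). Both lines were far above the NLS libraries in Col18a1, which had 41.55 to 128.3 CPM, so that LacZ and NLS lines were further apart than the LacZ lines from each other. Serpinb9b, a member of the granzyme-inhibiting serpins, had 7.86 and 12.98 CPM in line 12 and 4.91 and 7.41 CPM in line 10 (log2 fold change 0.75, SE 0.131).

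**Figure D2:**
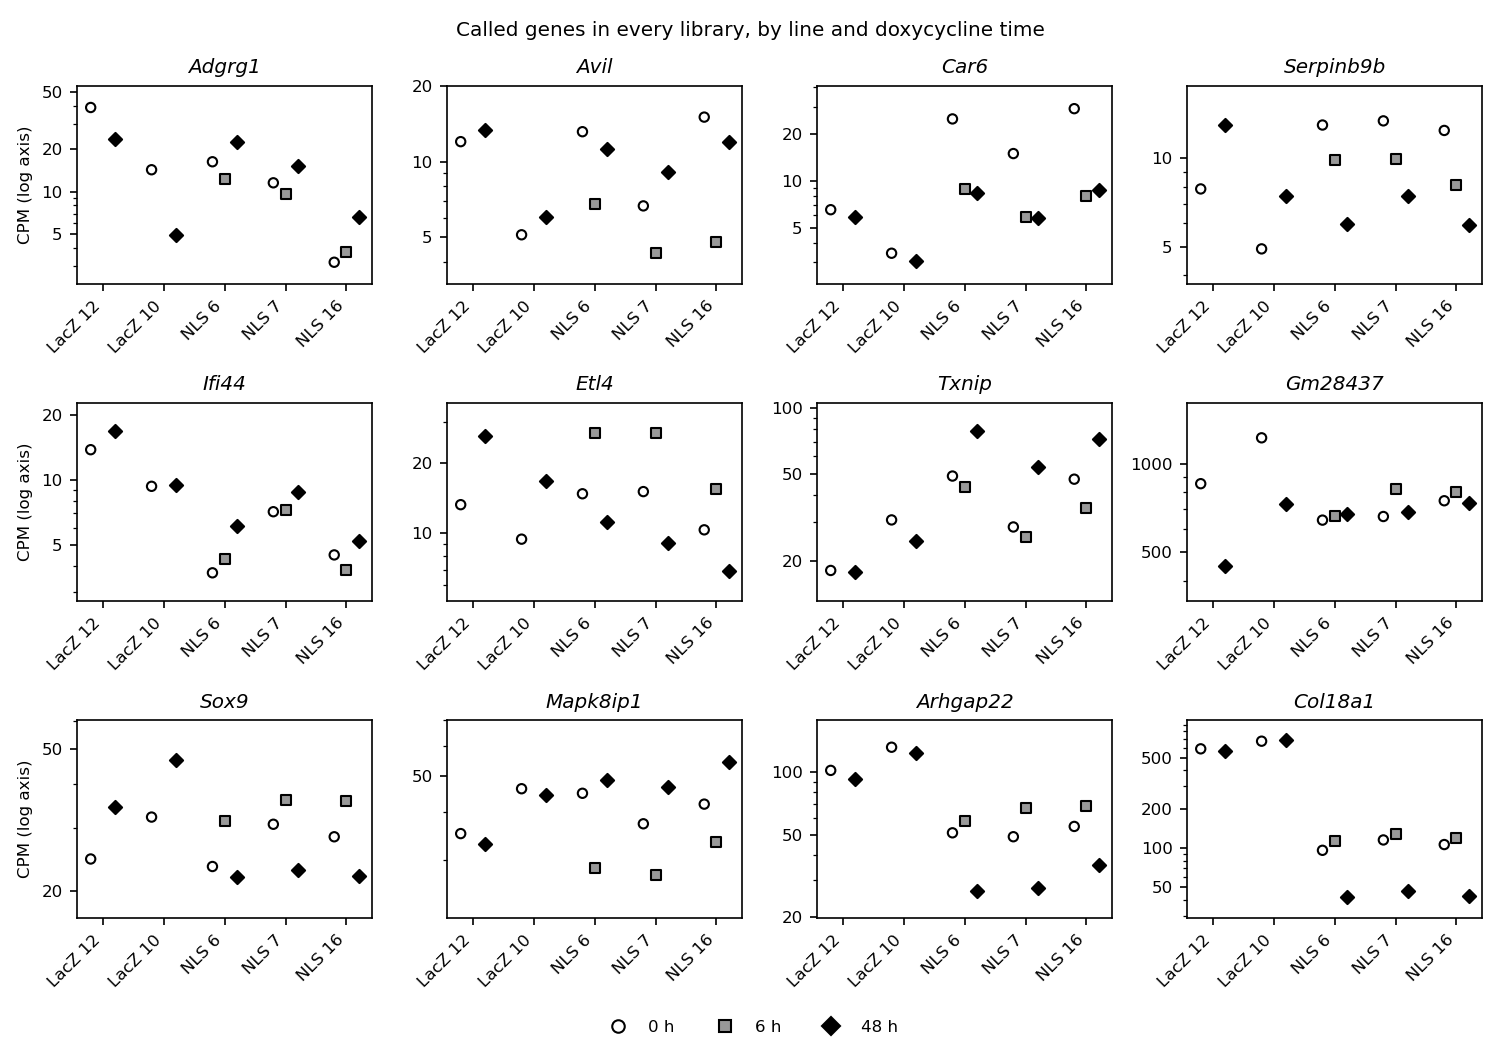
CPM (log axis) of 12 of the called genes in each of the 13 libraries, by line on the x axis and by doxycycline time (open circle 0 h, grey square 6 h, black diamond 48 h). Adgrg1 was highest in line 12 and Col18a1 was far higher in both LacZ lines than in any NLS library, while Avil and Mapk8ip1 of the LacZ lines lay within the NLS range.

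A further 3 genes higher in line 12, Dhrs3, Ugt1a6a and Pde8a, encode enzymes. Dhrs3, which reduces retinal to retinol, had 29.6 and 30.05 CPM in line 12 and 18.47 and 23.01 CPM in line 10 (log2 fold change 0.53, SE 0.094, adjusted p = 0.0354 by edgeR). Ugt1a6a, a UDP-glucuronosyltransferase, had 118.4 and 124.7 CPM in line 12 and 92.84 and 97.73 CPM in line 10. It shares 53% of its 31-base words with the other genes of the Ugt1a locus, and the sum over 9 genes of the locus was also higher in line 12 (log2 0.382 at 0 h and 0.254 at 48 h). Pde8a, a phosphodiesterase that breaks down cAMP, had 158.6 and 186.6 CPM in line 12 and 133.2 and 155 CPM in line 10 (log2 fold change 0.26, SE 0.0512, adjusted p = 0.0492 by edgeR). Its interval, 0.15 to 0.37 on the log2 scale, lay wholly within a 1.5-fold difference. Of the 21 tested genes of the cAMP machinery list, Pde8a was the single one called, and of 20 tested cAMP and CREB target genes 0 were called. With 0.19% of all genes called, a count of 0 or 1 in a list of this size says little about the list. Among those targets Per1, a clock gene, had the smallest p, with 25.87 and 24.17 CPM in line 12 and 30.54 and 26.94 CPM in line 10 (adjusted p = 0.371 by edgeR), and Egr1, an immediate early gene, the narrowest interval (-0.15 to 0.12 on the log2 scale).

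Ifi44, an interferon-induced gene, was among the genes called. Ifi44 had 13.83 and 16.91 CPM in line 12 and 9.34 and 9.51 CPM in line 10, with a log2 fold change of 0.70 (SE 0.137, adjusted p = 0.0492 by edgeR), and both lines lay above the NLS range of 3.70 to 8.75 CPM. The list of interferon-stimulated genes did not include it. Of the 28 tested members of that list 0 were called and 25 lay above 0, with a median log2 fold change of 0.109 against 0.00846 over all genes tested. That median was -0.118 at 0 h and 0.303 at 48 h, so the sign of the median was not the same at both times. Irf9, which joins the STAT proteins in the interferon-activated complex, had 11.89 and 19.93 CPM in line 12 and 11.64 and 13.66 CPM in line 10 (adjusted p = 0.303 by edgeR).

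Txnip led the genes lower in line 12. It encodes the thioredoxin-interacting protein, an arrestin-fold protein that restrains glucose uptake and is driven by the glucose-sensing factors that bind the element capitalised in its promoter. Txnip (ENSMUSG00000038393, GRCm38 chromosome 3) had 18.06 and 17.68 CPM in line 12 and 30.75 and 24.56 CPM in line 10. Line 12 lay below line 10 at both times and below all NLS libraries, which had 25.59 to 78.2 CPM. The log2 fold change was -0.63 (SE 0.0979, adjusted p = 0.0283 by edgeR), and the gene was also called at 0 h alone. Arrdc4, an arrestin-fold gene controlled by the same factors and looked up after the Txnip values were seen, had 4.58 and 6.69 CPM in line 12 and 6.25 and 9.24 CPM in line 10 (log2 fold change -0.46, SE 0.149, adjusted p = 0.188 by edgeR). Arrdc3 and Mlxip were looked up in the same way. Arrdc3, also an arrestin-fold gene, went the other way, with 21.89 and 26.37 CPM in line 12 and 18.79 and 23.06 CPM in line 10. Its log2 fold change was 0.21 (SE 0.109, adjusted p = 0.436 by edgeR). Mlxip, a glucose-sensing factor gene, had a log2 fold change of -0.011 (SE 0.0721). The 21 tested genes of the glycolysis and hypoxia list had 0 calls and a median log2 fold change of -0.0905, and the interval of every one lay within 1.5-fold.

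A further 4 of the 7 decreases were Sox9, Mapk8ip1, Arhgap22 and Snrpb. Sox9, a transcription factor of neural crest and cartilage, had 24.57 and 34.44 CPM in line 12 and 32.25 and 46.63 CPM in line 10 (log2 fold change -0.42, SE 0.0805, adjusted p = 0.0492 by edgeR), and was the single call among 14 tested mesenchymal and dedifferentiation genes. Mapk8ip1, the JNK scaffold JIP1, had 35.17 and 33.01 CPM in line 12 and 46.18 and 44.41 CPM in line 10 (log2 fold change -0.41, SE 0.0769). With a correction for GC content Mapk8ip1 was at -0.259 and no longer called (adjusted p = 0.0936 by edgeR). Arhgap22, a GTPase-activating protein for Rac, had 102.1 and 93.11 CPM in line 12 and 132.1 and 123.7 CPM in line 10, and both lines lay above the NLS range of 26.83 to 68.92 CPM. Snrpb, a core protein of the spliceosome, had 124.8 and 132.1 CPM in line 12 and 154.2 and 170.9 CPM in line 10 (log2 fold change -0.34, SE 0.0646).

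The remaining calls were 2 pseudogenes that share all or most of their sequence with other genes. Gm28437, lower in line 12, an unprocessed pseudogene on chromosome 1, had the smallest adjusted p of all (0.000615 by edgeR), with 856.5 and 449 CPM in line 12 and 1228 and 728.6 CPM in line 10. All of its 31-base words (100%) also occur in mt-Co3, the mitochondrial gene of cytochrome oxidase subunit 3. The estimated reads of mt-Co3 were 364 and 912.9 CPM in line 12 and 344.1 and 159.8 CPM in line 10. The sum of the pair was 1220 and 1362 CPM in line 12 and 1572 and 888.4 CPM in line 10, which is lower in line 12 at 0 h (log2 -0.365) and higher at 48 h (log2 0.616). Gm9385, higher in line 12, shares 93% of its words with Rpl24, a ribosomal protein gene, and 95.5% with any other gene, so that few of its words are its own. It had 80.39 and 76.09 CPM in line 12 and 58.24 and 60.95 CPM in line 10. Summed with Rpl24 and 2 further copies it had 464.7 and 511.4 CPM in line 12 and 439.1 and 571.1 CPM in line 10, again of opposite sign at the 2 times (log2 0.0819 and -0.159). For both pseudogenes the summed copies therefore had no line difference of 1 sign at both times.

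Most genes were bounded close to no difference. The 95% interval of the log2 fold change lay inside 1.5-fold in either direction (within 0.585 of 0) for 9770 genes, 84.5% of those tested. The share depended on level. Among 8979 genes with a mean of at least 10 CPM over the LacZ libraries 8758 (97.5%) were bounded, and among 2588 genes under 10 CPM 1012 (39.1%). Of the bounded genes 3770 were called for 48 h against 0 h in the LacZ lines, a contrast with 4267 calls (36.9% of genes). Of the 22 called genes, 11 were themselves bounded within 1.5-fold. Actb, the cytoplasmic beta-actin, had 4717 and 4541 CPM in line 12 and 4682 and 4548 CPM in line 10, with an interval of -0.11 to 0.11. Gapdh, a glycolytic enzyme, had an interval of -0.20 to 0.05, and Cdkn2a, the tumour suppressor locus often lost in melanoma, had 131.3 and 108.7 CPM in line 12 and 154.2 and 124.7 CPM in line 10 with an interval of -0.39 to -0.04.

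Across 42 gene lists of pathways, cell states and cell types, 570 distinct genes were tested and 3 were called, Pde8a, Actg2 and Sox9 (0.526%, against 0.19% of all genes). In 39 lists 0 genes passed. Every tested member was bounded within 1.5-fold in the lists of G1/S and replication (24 genes), G2/M and mitosis (22), the nuclear-encoded respiratory chain (20), sterol synthesis (20), glycolysis and hypoxia (21), housekeeping references (16) and fibroblast markers (6). All 24 genes of G1/S and replication lay below 0, with a median of -0.125 (-0.0759 at 0 h and -0.173 at 48 h) and none called; Uhrf1, which maintains DNA methylation at replication, had 141.6 and 180.9 CPM in line 12 and 166.9 and 214.8 CPM in line 10 (adjusted p = 0.0952 by edgeR). The G2/M median was -0.0197, and Ccna2, the cyclin of S phase and mitosis, had 233.7 and 228.1 CPM in line 12 and 233.4 and 228.8 CPM in line 10.

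Some lists leaned to one side without a call. Of 20 tested genes of the integrated stress response, by which cells answer amino acid shortage, 18 lay above 0, with a median of 0.177. That median was 0.269 at 0 h and 0.0717 at 48 h, so the lean was larger in the 0 h pair. Its member with the smallest p was Aldh1l2, a mitochondrial folate enzyme, with 565.8 and 549 CPM in line 12 and 386 and 453.4 CPM in line 10 (log2 fold change 0.41, SE 0.0831, adjusted p = 0.0918 by edgeR), and Asns, which makes asparagine, had 309.5 and 318.8 CPM in line 12 and 234.8 and 272.8 CPM in line 10 (adjusted p = 0.123 by edgeR). With the 4 LacZ libraries alone 4 genes of that list were called higher. Of 14 tested chemokines and cytokines 12 lay below 0, with a median of -0.162; Ccl2, which draws monocytes, had 38.05 and 43.59 CPM in line 12 and 46.93 and 57.3 CPM in line 10 (adjusted p = 0.077 by edgeR). The ERK output list had 14 of 17 genes below 0, with Fosl1, an AP-1 subunit, at 160.7 and 178.7 CPM in line 12 and 177.6 and 218.2 CPM in line 10 (adjusted p = 0.117 by edgeR). The YAP/TAZ and Hippo list had 0 calls among 25 genes, and Axl, a receptor kinase and YAP target, had an interval of -0.09 to 0.12.

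**Figure D3:**
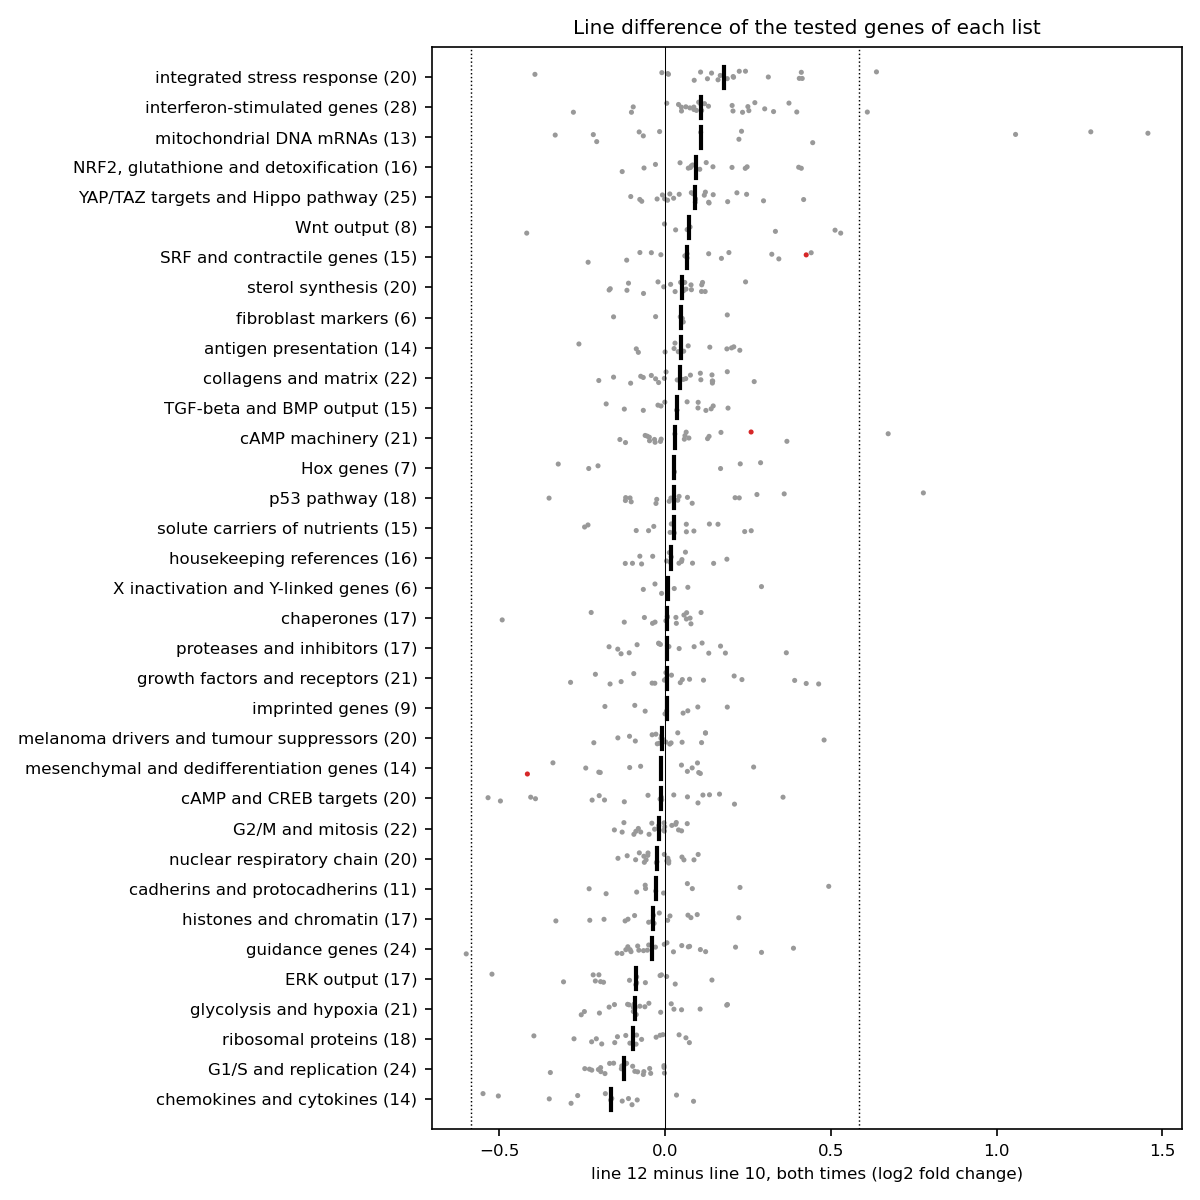
Line 12 minus line 10 over both times (log2 fold change) for the tested genes of each list with at least 6 tested genes; the number tested is in brackets, black bars are medians, red points passed the test and dotted lines mark 1.5-fold. Medians ran from -0.162 for chemokines and cytokines to 0.177 for the integrated stress response, and 3 points are red.

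The line difference was also compared between 0 and 48 h, where every line and time is 1 library and the spread comes from the NLS lines. A line difference that changes with time therefore cannot be told apart from variation of single libraries. At 0 h alone 14 genes were called (0.121%; 6 higher and 8 lower in line 12) and at 48 h alone 8 (0.0692%; 7 higher and 1 lower). The difference of the 2 line differences was called for 26 genes (0.225%), 24 with a larger log2 value at 48 h and 2 with a smaller one, and 619 genes had an unadjusted p below 0.05. None of the 26 was among the 22, and in 25 of them the line difference had opposite signs at 0 and 48 h. Over all 11567 genes the difference at 0 h and that at 48 h had a Spearman rho of 0.206 and a Pearson r of -0.043; among the 8979 genes of at least 10 CPM these were 0.323 and 0.252, descriptions across genes of 4 libraries. Genes at least 1.5-fold apart at both times numbered 68 with the same direction and 76 with opposite directions, and 7 and 4 at 10 CPM or more.

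The genes called for this contrast had, by that choice, crossed values over the 4 libraries, which are given as a description. Leng8 had 55.71 CPM at 0 h and 78.65 at 48 h in line 12, against 83.44 and 50.61 CPM in line 10. It was thus high in line 12 at 48 h and in line 10 at 0 h and low in the other 2 libraries (difference of log2 fold changes 1.22, SE 0.117, adjusted p = 0.000343 by edgeR). Ccnl2, a cyclin that takes part in splicing, had 34.82 and 55.55 CPM in line 12 and 52.91 and 35.56 CPM in line 10. Rsrp1, an arginine- and serine-rich protein, had 44.87 and 73.38 CPM in line 12 and 66.25 and 47.18 CPM in line 10. Kmt5c, which methylates histone H4, had 12.34 and 16.3 CPM in line 12 and 19.54 and 12 CPM in line 10. Ankrd16, Fam193b and Zgpat had the same high and low libraries, and Nrbp2 was high in line 12 at 48 h alone. Others differed: Wnt10b, a secreted Wnt ligand looked up after its values were seen, had 99.89 and 95.97 CPM in line 12 and 113.3 and 61.72 CPM in line 10. The share of TPM from transcripts annotated as retained introns, processed transcripts or targets of nonsense-mediated decay differed widely among these genes. For Ccnl2 it was 68.9 and 77.3% in line 12 and 87 and 64.5% in line 10, and for Rsrp1 58.8 and 64% in line 12 and 60 and 49.4% in line 10. For Leng8 it was 1.12 and 7.04% in line 12 and 1.2 and 2.27% in line 10, for Fam193b 21.8 and 17.2% in line 12 and 13.9 and 8.31% in line 10, and for Wnt10b and the 5 mitochondrial genes 0% in all 4 libraries. Over the whole library, retained-intron transcripts held 4 and 4.48% of TPM in line 12 and 4.31 and 3.96% in line 10, with the same pair of libraries above the other pair; NLS libraries had 4.38 to 4.89%.

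Mitochondrial transcripts held 0.872 and 1.15% of gene counts in line 12 and 1.17 and 0.834% in line 10. A higher log2 value of line 12 minus line 10 at 48 h than at 0 h was called for 5 mitochondrial genes. In 4 of them the signs at 0 and 48 h were opposite, and mt-Nd2, of respiratory complex I, was higher in line 12 at both times, with 551.7 and 635.7 CPM in line 12 and 515.9 and 365.9 CPM in line 10. mt-Nd4, also of respiratory complex I, had 597.9 and 813.3 CPM in line 12 and 866.6 and 625.1 CPM in line 10 (difference of log2 fold changes 0.92, SE 0.115, adjusted p = 0.00343 by edgeR). mt-Co1, of cytochrome oxidase, had 2998 and 4219 CPM in line 12 and 4593 and 3666 CPM in line 10. Over the 13 mitochondrial mRNAs the median line difference was -0.357 at 0 h and 0.537 at 48 h, against 0.0121 and 0.00263 over all genes, and 3 of 13 were bounded within 1.5-fold over both times. The part of the mitochondrial and retained-intron shares in the 26 calls was not tested.

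**Figure D4:**
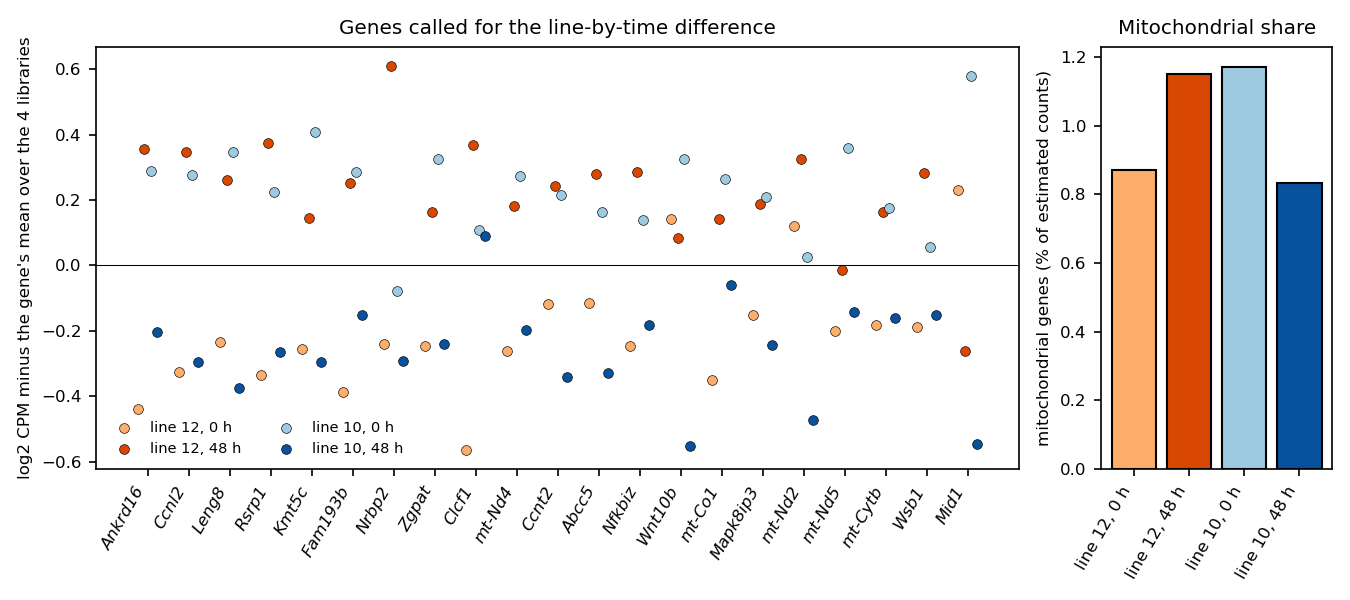
Left, log2 CPM minus the gene's own mean over the 4 LacZ libraries. Shown are the genes called with a higher log2 value of line 12 minus line 10 at 48 h than at 0 h that pass the naming rule. Right, share of estimated counts in mitochondrial genes per library. Most genes, chosen by this contrast, are high in line 12 at 48 h and in line 10 at 0 h, the libraries with the higher mitochondrial shares (1.15 and 1.17%).

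Line differences also followed base composition. The median log2 fold change over 5 equal groups of genes by transcript GC content was 0.0453 in the lowest group (31.9 to 44.8% GC), 0.0438, 0.0242 and -0.0189 in the next ones and -0.0926 in the highest (56 to 69.2% GC). The order was similar at each time, with medians in the highest group of -0.104 at 0 h and -0.0828 at 48 h. Of the 238 genes called lower with the 4 LacZ libraries alone, 168 were in the highest group, and their median GC content was 58.1%, against 50.4% over all genes tested. After a per-library correction for GC content, that analysis called 121 genes (68 higher, 53 lower) in place of 343 (105 higher, 238 lower), and the analysis over 13 libraries called 48 (36 higher, 12 lower) in place of 22 (15 higher, 7 lower). Of the 22 genes, 20 passed with the correction over 13 libraries, and the 2 lost were Col18a1 and Mapk8ip1. With the correction and the 4 LacZ libraries alone 19 of the 22 passed and 3 did not.

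**Figure D5:**
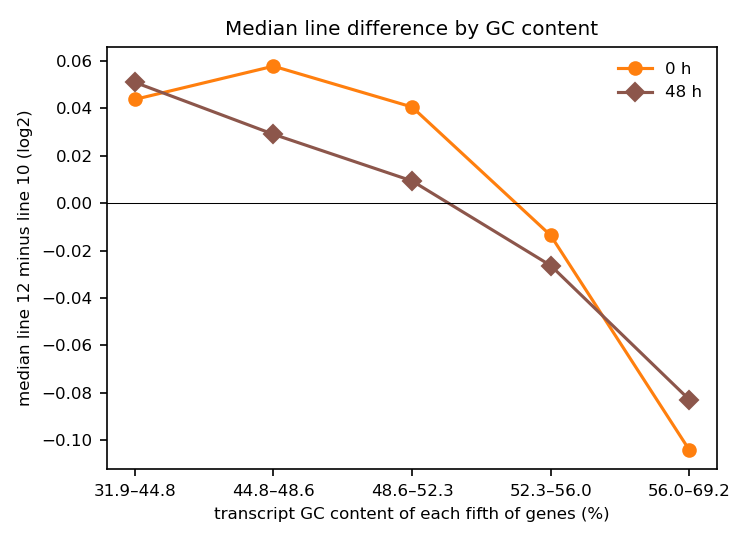
Median of line 12 minus line 10 (log2 fold change) in 5 equal groups of genes by transcript GC content, at 0 h (circles) and 48 h (diamonds). The medians are above 0 in the first 3 groups and lowest in the group with 56 to 69.2% GC, -0.104 at 0 h and -0.0828 at 48 h.

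Chromosome medians of the line difference over autosomes and X ran from -0.0138 on chromosome 7 to 0.0391 on X. Medians over 347 windows of 25 neighbouring genes, taken from the tested genes with a mean of at least 10 CPM over the LacZ libraries, ran from -0.18 to 0.108. The mitochondrial chromosome (13 genes tested) had a median of 0.107 and the Y chromosome (4 genes) 0.334, with 0 genes called on either. No 2 neighbouring tested genes were both called in the same direction over 13 libraries. With so few calls such neighbours were unlikely in any case, so this says little about regional differences. With the 4 LacZ libraries alone there were 3 runs of at least 3 neighbours, all lower in line 12, and the longest held Mex3d, Mbd3, Uqcr11 and Tcf3 on chromosome 10 (80380355 to 80433647). Of the 238 genes called lower there, 168 were in the highest GC group, and the part of GC content in these runs was not tested.

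Isoform shares differed for a small set of transcripts, with no replicate check. Among 58296 transcripts of 9165 genes at 5 TPM or more in all 4 LacZ libraries, 84 transcripts of 59 genes differed in their share of the gene by at least 25 percentage points in the same direction at both times, and 89 transcripts of 63 genes in opposite directions. Bicd2, an adaptor of the motor dynein, kept its level (31.3 and 30.5 TPM in line 12, 30.5 and 30.1 TPM in line 10) while 1 protein-coding transcript held 76.7 and 83.2% of it in line 12 and 40.1 and 42.2% in line 10. The protein-coding transcript of BC003965 held 90.4 and 100% in line 12 and 43.7 and 58.3% in line 10. Since opposite directions were as frequent as equal ones and Salmon divides shared reads by a model, these shares are descriptions of the 4 libraries; both genes were picked after their values were seen.

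Set beside other line pairs of the study, the LacZ lines were close. Beside the 22 genes of LacZ line 12 against line 10, with 2 libraries a line, the same analysis called 1494 genes (12.9%) for NLS line 7 against line 6, 2995 (25.9%) for line 7 against line 16 and 296 (2.56%) for line 6 against line 16, with 3 libraries a line. With the 0 h and 48 h libraries alone, so that all lines had 2 libraries, the counts were 167 (1.44%) for the LacZ pair and 1305 (11.3%), 2335 (20.2%) and 168 (1.45%) for the NLS pairs in that order. LacZ lines 12 and 10 and NLS lines 6 and 16 thus had nearly equal counts at equal numbers of libraries, and both counts were lower than those of the pairs with NLS line 7. The median absolute log2 fold change was 0.0843 for the LacZ pair in the analysis of 13 libraries, and 0.098, 0.122 and 0.073 for the NLS pairs in the same order. With the 0 h and 48 h libraries alone it was 0.0838 for the LacZ pair and 0.113, 0.132 and 0.0713 for the NLS pairs. For 48 h against 0 h in the LacZ lines the median over 13 libraries was 0.176, which was larger than for the line pair.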

How the data were processed

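Per the labels' protocols, total RNA was isolated with Trizol, and stranded poly(A) libraries were sequenced from both ends (Truseq kit). The submitters' processing notes name Salmon 1.2.0 and GRCm38; the authors deposited its estimated counts and TPM values for each transcript. Options and transcript set are not stated there. Because Salmon splits reads that fit several transcripts, levels of genes with near-identical copies are uncertain.

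GENCODE M21 (GRCm38) held 115977 of the 116546 deposited transcripts (99.5%), which belong to 35498 genes; estimated counts were added up per gene and rounded. Unmatched transcripts held 0.121 to 0.165% of a library. Libraries were grouped by title and cell line number, and the time label pairs the libraries of the 2 lines. Libraries taken at the same time from both lines were not duplicates, with a chi-square per degree of freedom of 7.58 at 0 h and 8.62 at 48 h.

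Genes with at least 1 CPM in 2 of the 4 LacZ libraries were tested with edgeR 4.0.16 in R 4.3.3 (robust quasi-likelihood test, TMM) in 1 model of all 13 libraries with terms for line, NLS time and LacZ time, which left 5 residual degrees of freedom; the differences at each time used a model with a mean for each LacZ library (4 degrees of freedom). P-values were adjusted by Benjamini-Hochberg over all genes tested and called below 0.05; SEs were derived from the test statistic. Alternatives were another size factor, filters on low counts, other sets of libraries, no time block, each LacZ library left out, DESeq2 1.42.0 and, added after the data were seen, a correction for transcript GC content. Copies were found as shared words of 31 bases among GENCODE transcripts.

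Genes were named by rule: called, the same direction at both times, a mean of at least 2 CPM and a symbol of a known gene, up to 15 each way, up to 8 each way for the change with time, and from each list the called genes or the one with the smallest p, and the one with the narrowest interval. Pseudogenes, and genes said to be looked up or picked afterwards, fall outside it, as do Lmod1 and Asns, chosen after their values were seen. The lines, gene lists and rules were chosen with earlier results of these data known.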

Additional observations from a re-analysis of the deposited data

Results flagged for a closer look

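The line difference at 48 h differed from that at 0 h by an interaction test (edgeR quasi-likelihood, adjusted p below 0.05) for the following named genes, each given as the difference of the log2 fold changes of line 12 over line 10, 48 h minus 0 h. Each line and time is 1 library, so such a difference cannot be told apart from variation of single libraries. It was 1.29 for Ankrd16, 1.25 for Ccnl2, 1.22 for Leng8, 1.2 for Rsrp1, 1.10 for Kmt5c, 1.08 for Fam193b, 1.06 for Nrbp2 and 0.976 for Zgpat. Among mitochondrial genes it was 0.915 for mt-Nd4, 0.818 for mt-Co1, 0.70 for mt-Nd2, 0.688 for mt-Nd5 and 0.68 for mt-Cytb. The mitochondrial share of the libraries was 0.872 and 1.15% in line 12 and 1.17 and 0.834% in line 10; the part of that share was not tested.

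Zfp82, a zinc finger gene, had the value -5.74, from 3.03 and 3.02 CPM in line 12 and 0.0534 and 3.15 CPM in line 10. It shares 33.3% of its 31-base words with Gm26920, which had 0 and 0.511 CPM in line 12 and 2.67 and 0.553 CPM in line 10. Summed, the pair had 3.03 and 3.53 CPM in line 12 and 2.72 and 3.71 CPM in line 10.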

How the results depend on the processing

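None of the 22 genes changed sign in any alternative run, which was largely fixed in advance. All 22 had the same direction at 0 h and at 48 h, and leaving out 1 LacZ library leaves the difference at the other time. The other runs use the same 4 LacZ libraries, so the constant sign is no separate evidence for the 22. For line 12 against line 10 (22 called, 15 higher and 7 lower, 3 of them list genes) the counts in that order were 75, 50, 25 and 8 with no filter on low counts, 167, 58, 109 and 16 without the 6 h NLS libraries, 343, 105, 238 and 35 with the 4 LacZ libraries alone, 121, 68, 53 and 26 with these and a GC offset, 48, 36, 12 and 6 with a GC offset over 13 libraries, 48, 23, 25 and 10 with DESeq2 (adjusted p missing for 6952 genes), and 0, 0, 0 and 0 with no replicate block, that is without the LacZ time label (542 genes at an unadjusted p below 0.05 by edgeR). The edgeR filter gave 4 lower genes and 1 list gene. Leaving out 1 LacZ library gave 8 to 14 calls (6 to 7 higher, 1 to 8 lower): 8 without either 0 h library and 14 without either 48 h library, when 1 line is a lone library assumed to vary like the rest. The same omissions gave 2307 to 2677 calls for 48 h against 0 h in the LacZ lines, in place of 4267. Of the 22 genes, 2 or 4 kept their call there, 17 with the other size factor, 14 with the edgeR filter, 13 with DESeq2 and 22 with no filter, without the 6 h libraries or with the 4 LacZ libraries alone. Counts at 0 h (14) and 48 h (8) were 30 and 28 with no filter, 28 and 21 with the GC offset, and 21 at 48 h without the 6 h libraries. The 26 changes with time became 48 with no filter, 13 with the edgeR filter and 19 with DESeq2. NLS pairs became 59, 583 and 19 with no block, and 168 (6 against 16) without 6 h and 1935 (7 against 16) with the GC offset. Transcripts with the same or opposite direction were 156 and 161 at 20 points and 45 and 48 at 30. At 10 CPM or more, 7 genes in place of 68 were 1.5-fold apart at both times and the lowest chromosome median was -0.0164. Genes under 10 CPM were mostly not bounded, so depth limits what can be said of them.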
